A study of Mus musculus with 12 samples.

Results

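The 10 Wnt ligand genes Wnt2b, Wnt3, Wnt3a, Wnt4, Wnt5a, Wnt5b, Wnt7a, Wnt7b, Wnt8b and Wnt9a were followed through 12 RNA-seq libraries of mouse dorsal cortex. They were chosen by name as ligands of the cortex and of the cortical hem, by matching their symbols in the deposited gene tables. All 10 were found, of 27179 genes in the tables, beside 9 other Wnt ligand genes. At each of the embryonic stages E14.5 and E16.5, 3 libraries came from embryos labelled WT and 3 from embryos labelled Ash2l cKO, all of strain C57BL/6. The cKO is a conditional knockout of Ash2l by D6-Cre, a Cre recombinase whose promoter is active in the dorsal telencephalon, so cells outside that domain, such as vessels and meninges, keep the gene. Which exons are removed, which alleles the WT embryos carry and whether a library is 1 embryo is not given in the labels. Ash2l encodes a shared subunit of the COMPASS complexes that methylate histone H3 at lysine 4, and the series title names Wnt signalling as its subject.

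Wnt ligands are lipid-modified secreted proteins that bind Frizzled receptors. With the co-receptors Lrp5 and Lrp6 they stabilise beta-catenin, which switches on target genes with TCF/LEF factors, and through other co-receptors such as Ror2 they steer cell shape and polarity without beta-catenin. In the embryonic telencephalon the cortical hem, a signalling centre at the medial edge of the cortex, is known for Wnt2b, Wnt3a, Wnt5a, Wnt8b and Wnt9a, and the hippocampus forms beside it. Wnt7a and Wnt7b are the ligands of the cortical wall itself, Wnt7a mainly in progenitors and Wnt7b mainly in neurons of the deep layers.

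Within each group the libraries are called A, B and C, and a WT and a cKO library of 1 age with the same letter share a number in their titles. The labels do not say what that number stands for, so p-values measure the spread between libraries, which may in part be technical. Library totals ran from 14318147 to 24719047 fragments. The targeted gene was lower in every cKO library: Ash2l lay between 118 and 143 CPM in the 6 WT libraries and between 46.9 and 60.6 CPM in the 6 cKO libraries, where CPM is counts per 1000000 counts of library size. Xist and Y-linked transcripts read all 3 E14.5 WT libraries as male and all 3 E14.5 cKO libraries as female, so that sex and genotype cannot be told apart at that age. At E16.5 WT A and cKO C read as female and the other 4 libraries as male. Markers of other tissue stood high in single libraries: the summed choroid plexus markers reached 496 CPM in E14.5 WT A and 642 CPM in E16.5 WT C, meningeal markers 363 CPM in E14.5 cKO A, and ventral telencephalic markers 325 CPM in E14.5 WT B. The dorsal cortex label was checked against 10 markers, whose summed level was 3218 to 3628 CPM in E14.5 WT, 2869 to 3475 CPM in E14.5 cKO, 3303 to 3348 CPM in E16.5 WT and 2699 to 2973 CPM in E16.5 cKO libraries. The genotypes did not overlap at E16.5. There 2 of the 10 were called lower (Neurod6 and Nfix), against 15.9% of all genes. In the paired fit described below 4 were lower and 1 higher, against 32.2%. The part of this in the ligand results was not tested.

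Promoter sequences are shown for 4 ligands because COMPASS complexes are known to act at promoters rich in CpG dinucleotides. Wnt5b passed the test at E16.5 while Wnt2b, Wnt3a and Wnt8b did not, and those 3 varied together between libraries. RefSeq windows of 300 bases, from 250 bases before to 50 bases after a transcript start on GRCm38.p6, matched 8 of the 10 ligands. No window was matched for Wnt5a or Wnt7b. Each sequence below is written 5′ to 3′ on the strand of the gene with CpG dinucleotides in capitals, for Wnt5b (chr6:119544298-119544597, minus strand, the start at the 5′ end of the counted gene), Wnt2b (chr3:104961660-104961959, minus strand), Wnt3a (chr11:59290702-59291001, minus strand) and Wnt8b (chr19:44493222-44493521, plus strand).
Wnt5b: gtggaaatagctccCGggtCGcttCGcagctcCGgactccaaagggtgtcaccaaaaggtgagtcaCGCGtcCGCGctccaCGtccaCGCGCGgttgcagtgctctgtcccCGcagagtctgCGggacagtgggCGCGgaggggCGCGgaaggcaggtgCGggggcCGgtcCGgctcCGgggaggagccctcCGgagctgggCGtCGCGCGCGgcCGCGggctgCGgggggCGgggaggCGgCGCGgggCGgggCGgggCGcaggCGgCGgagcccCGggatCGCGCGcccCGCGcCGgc
Wnt2b: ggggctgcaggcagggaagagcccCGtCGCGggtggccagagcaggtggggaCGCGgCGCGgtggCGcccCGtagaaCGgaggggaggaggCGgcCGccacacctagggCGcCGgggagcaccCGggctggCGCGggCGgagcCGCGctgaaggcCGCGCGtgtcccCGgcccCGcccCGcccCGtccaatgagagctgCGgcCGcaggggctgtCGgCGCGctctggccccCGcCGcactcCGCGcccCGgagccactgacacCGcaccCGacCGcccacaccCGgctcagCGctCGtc
Wnt3a: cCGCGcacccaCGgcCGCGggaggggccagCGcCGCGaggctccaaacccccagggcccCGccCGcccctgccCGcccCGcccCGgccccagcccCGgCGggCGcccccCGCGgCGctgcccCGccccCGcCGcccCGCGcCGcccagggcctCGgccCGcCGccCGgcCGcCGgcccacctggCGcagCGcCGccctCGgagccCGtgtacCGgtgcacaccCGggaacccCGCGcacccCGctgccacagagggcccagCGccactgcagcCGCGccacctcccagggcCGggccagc
Wnt8b: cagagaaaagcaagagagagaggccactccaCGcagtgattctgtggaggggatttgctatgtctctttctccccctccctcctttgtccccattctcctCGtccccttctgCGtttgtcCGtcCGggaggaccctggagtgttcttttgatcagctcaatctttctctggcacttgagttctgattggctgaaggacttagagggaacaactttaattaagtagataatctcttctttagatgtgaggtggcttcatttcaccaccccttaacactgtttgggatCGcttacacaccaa

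The Wnt5b window held 47 CpG dinucleotides, more than 98.6% of the 32851 windows of that length, and its GC content was 78.0%. Wnt2b (43 CpG) and Wnt3a (45 CpG) were as rich, whereas Wnt8b held 6, close to the median of 7 over all windows. The windows of Wnt7a (42), Wnt4 (51), Wnt9a (58) and Wnt3 (24) were also above that median. CpG-rich windows were listed for Wnt5b and for ligands that did not pass the test. Which start is used in the cortex was not measured, and a part of CpG content in the calls was not tested. The 2 other listed starts of Wnt5b, further downstream in the gene, held 4 and 7 CpG. The TCF/LEF core CTTTG followed by AA, AT, TA or TT was searched on both strands. It stood in 2 of the 10 windows of these genes, 1 of Wnt3 and the most downstream 1 of Wnt5b, and in 16.9% of all windows.

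The ligands covered a wide range of levels, with Wnt7b far above the rest. To compare genes, CPM was divided by the counted exon length (RPKM). In E14.5 WT cortex Wnt7b stood at 42.7 ± 5.14 RPKM (SD, n = 3), Wnt7a at 11.9 ± 0.102, Wnt5a at 8.32 ± 1.31 and Wnt8b at 4.92 ± 0.985. The ranges of these 4 did not overlap. Below them, the neighbours in order among Wnt2b (2.12 ± 0.618 RPKM), Wnt5b (1.95 ± 0.376), Wnt3a (1.22 ± 0.406) and Wnt9a (0.721 ± 0.209) each overlapped. Wnt3 (0.214 ± 0.134 RPKM) and Wnt4 (0.103 ± 0.0606) were lowest and overlapped with each other.

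At E16.5 the WT order was the same for Wnt7b (39.9 ± 1.47 RPKM), Wnt7a (10.01 ± 0.405), Wnt5a (8.94 ± 1.59) and Wnt8b (2.47 ± 0.962), but Wnt7a and Wnt5a overlapped, as did Wnt8b and Wnt5b (1.25 ± 0.283) below it. In E16.5 cKO cortex the means of Wnt5a (10.2 ± 1.86 RPKM) and Wnt7a (9.32 ± 0.716) changed places, and their ranges overlapped. Wnt5b stood sixth in WT and seventh in cKO cortex at E14.5. It stood next below Wnt8b in WT and eighth in cKO cortex at E16.5, where its cKO level of 0.448 ± 0.155 RPKM overlapped that of Wnt9a above it. The 9 other ligand genes added little, between 0.711% and 1.03% of the summed Wnt RPKM as group means. Wnt10a alone of them had enough counts for a test, with values between 0.161 and 1.34 CPM, and Wnt1 had no count in any library.

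Summed over all 19 Wnt ligand genes, the level was 74.6 ± 2.86 RPKM in E14.5 WT and 58.4 ± 3.96 in E14.5 cKO cortex (SD, n = 3 each). At E16.5 it was 66.0 ± 2.36 RPKM in WT and 58.8 ± 2.08 in cKO. The 3 cKO libraries lay below the 3 WT libraries at both ages. Wnt7b made up 57.1 ± 5.32% of the sum in E14.5 WT, 49.97 ± 7.45% in E14.5 cKO, 60.5 ± 3.66% in E16.5 WT and 54.8 ± 8.99% in E16.5 cKO libraries. Wnt7b alone went from 42.7 to 29.4 RPKM at E14.5 and from 39.9 to 32.3 RPKM at E16.5 between the WT and cKO means. These sums over chosen genes carry no test.

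**Figure D1:**
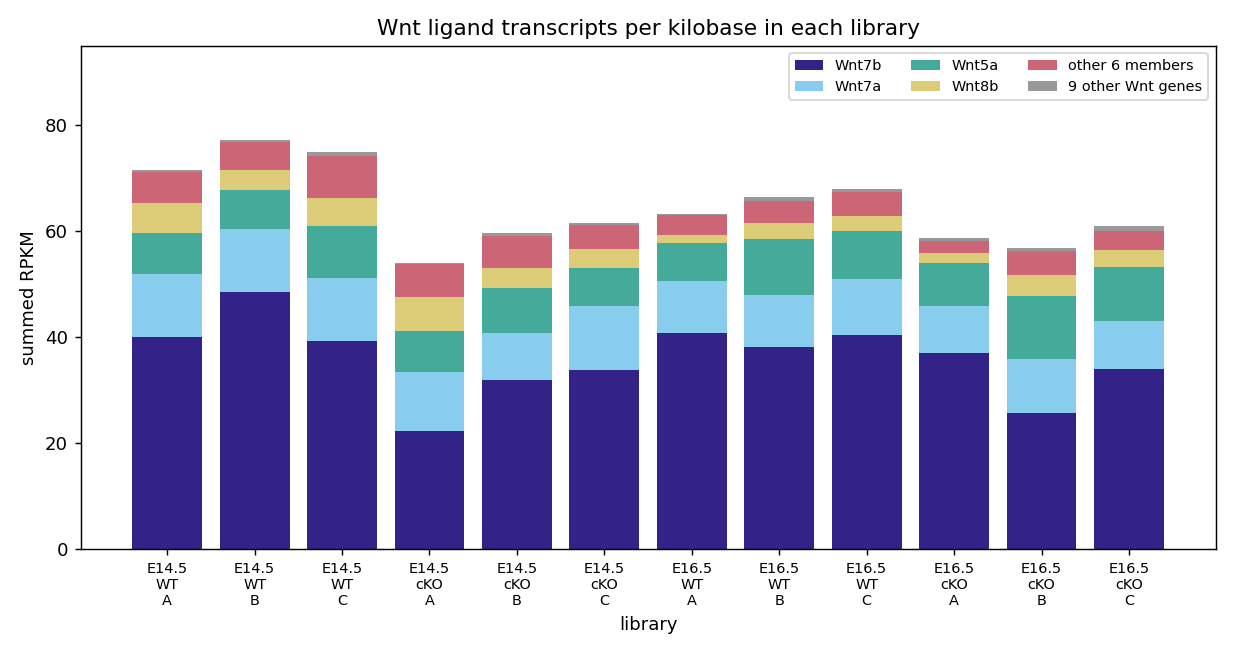
Summed RPKM (y axis) of all 19 Wnt ligand genes in each of the 12 libraries (x axis), stacked by gene. Wnt7b is the largest segment in every library, from 22.4 RPKM in E14.5 cKO A to 48.6 RPKM in E14.5 WT B.

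The first comparison asks which ligands differ between WT and Ash2l cKO cortex, as the series does for the transcriptome. Wnt5b fell at E16.5, Wnt7b and Wnt3 fell there once the shared numbers were taken as pairs, and no ligand was called higher at either age. Each change below is the log2 of cKO over WT, given with its standard error (SE) and an edgeR p adjusted over all genes. At E14.5, 9 of the 10 ligands had enough counts for a test and 0 passed an adjusted p of 0.05, against 2.01% of all genes. At an unadjusted p under 0.05 there were 3 (Wnt4, Wnt5b and Wnt7b), against 20.2% of all genes, and DESeq2 called 0, against 8.02%. At E16.5 all 10 were tested and 1 passed, against 15.9% of all genes, with 3 at an unadjusted p under 0.05 (Wnt3, Wnt5b and Wnt7b), against 31.6%. DESeq2 called the same gene and no other ligand, against 17.2%. The authors' deposited table calls 0 of the ligands at E14.5, against 7.91% of its genes, and 1 at E16.5, Wnt5b, against 17.0%. The median change of the tested ligands was -0.07 at E14.5 and -0.05 at E16.5, beside 0.03 and 0.02 over all genes tested.

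At E16.5 the deviations of same-lettered libraries from their group means correlated at 0.281 (A), 0.210 (B) and 0.112 (C). WT C and cKO B, of different letters, correlated nearly as much (0.107) as the C pair, so the pairing of C is weak. The fit with the shared number as a block is given beside that without it. With the block 3 of the 10 ligands passed, all lower (Wnt5b, Wnt7b and Wnt3), against 32.2% of all genes. The share of ligands called was close to that of all genes in that fit. At E14.5 the C pair did not meet the rule for pairs given below. A blocked fit of that age also called Wnt7b lower, against 8.65% of all genes.

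**Figure D2:**
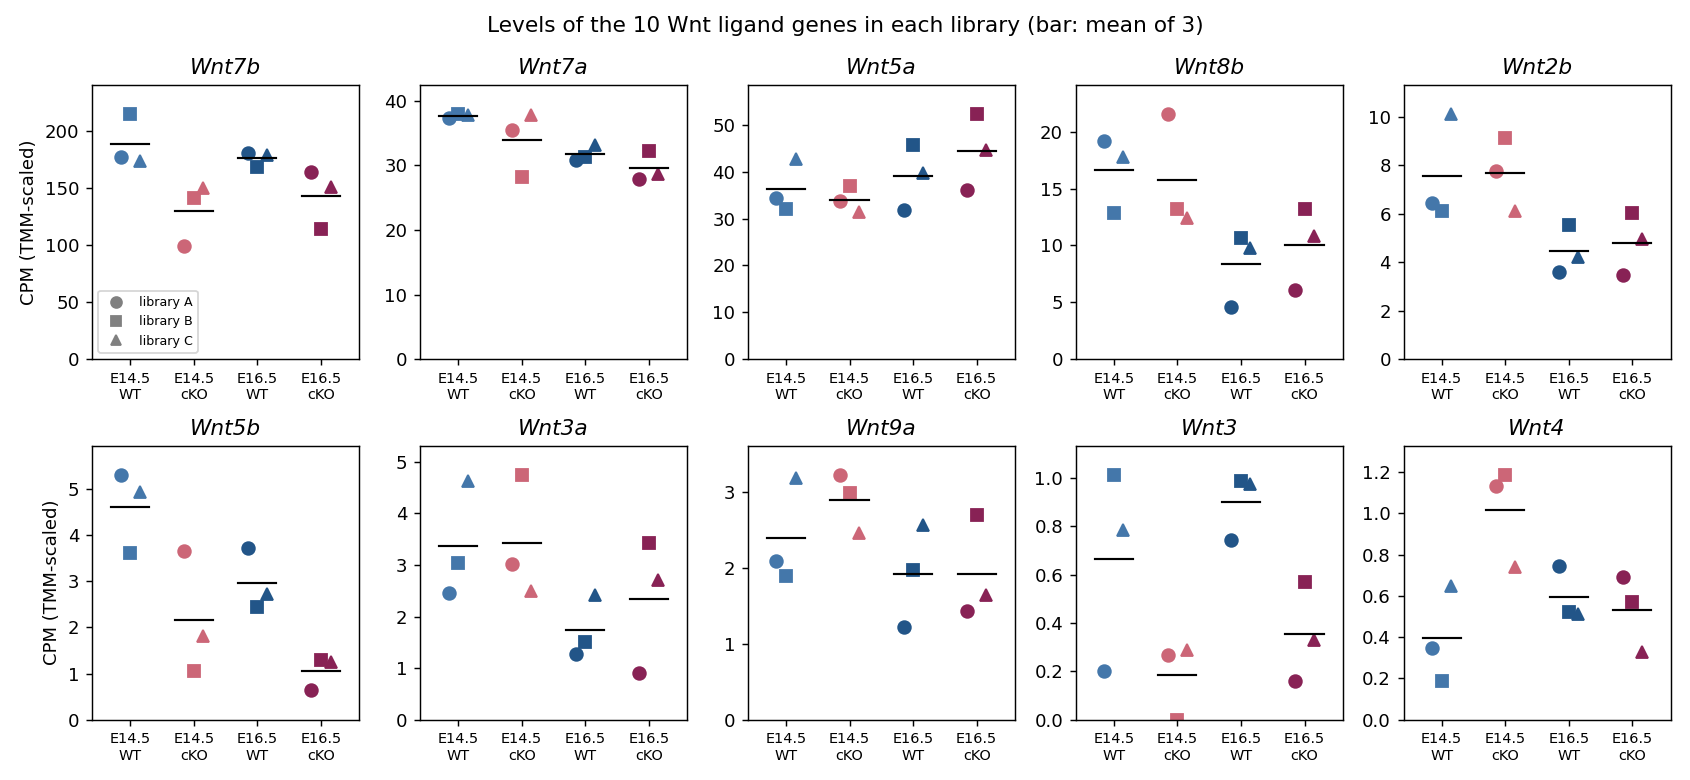
CPM (y axis, from 0, scaled per panel) of each ligand in the 4 groups (x axis), with 1 point per library, shaped by its letter, and a bar for the mean of 3. Wnt7b lies lower in all cKO libraries than in all WT libraries at both ages, Wnt5b does so at E16.5, and Wnt8b, Wnt2b, Wnt3a and Wnt9a overlap between genotypes.

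Wnt7b signals through beta-catenin and, with Wnt7a, is known to drive the growth of vessels into the brain through the co-receptors Gpr124 and Reck. The gene covers bases 85535437 to 85581821 of chromosome 15 (mm10, minus strand) in 6 exon intervals. At E14.5 its level was 177, 214 and 173 CPM in WT A, B and C and 98.7, 141 and 150 CPM in cKO A, B and C. The E16.5 values were 180, 169 and 179 CPM in WT and 164, 114 and 151 CPM in cKO. The cKO libraries were lower than the WT libraries at each age without overlap, with WT B highest and cKO A lowest at E14.5 and cKO B lowest at E16.5. Wnt7b was the only ligand to do so at both ages, as did 10.2% of the genes tested at both. The change was -0.53 at E14.5 (SE 0.166, adjusted p = 0.143) and -0.31 at E16.5 (SE 0.125, adjusted p = 0.131). With the block at E16.5 it was -0.32 (SE 0.0787, adjusted p = 0.0168). Leaving out 1 library at a time at E16.5, the unblocked change ran from -0.42 without cKO A (adjusted p = 0.0323) to -0.17 without cKO B (adjusted p = 0.241), and it passed in 1 of the 6 fits.

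Wnt5b is a ligand best known for signalling without beta-catenin, in planar polarity and cell movement. Its gene spans chromosome 6 from 119432531 to 119544347 on the minus strand, with 5 exon intervals. At E16.5 its level was 3.72, 2.44 and 2.72 CPM in WT A, B and C and 0.638, 1.30 and 1.25 CPM in cKO A, B and C, from 42 to 70 counts a library in WT and 12 to 25 in cKO. Every cKO library lay below every WT library, and cKO A was lowest. The female libraries, WT A and cKO C, were only 1 per genotype. The log2 fold change was -1.48 (SE 0.332, adjusted p = 0.0222) and -1.49 with the block (adjusted p = 0.0107). DESeq2 gave an adjusted p of 0.00285. In the authors' deposited table the log2 ratio of WT over knockout is 0.98, with an adjusted p of 0.00267. Left out in turn, 4 libraries each took the call away: WT A (-1.29, adjusted p = 0.0814), WT B (-1.60, adjusted p = 0.0557), WT C (-1.54, adjusted p = 0.0513) and cKO B (-1.67, adjusted p = 0.0588). The call was also lost in the fit of all 12 libraries with embryo sex as a term (-1.46, adjusted p = 0.0549).

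At E14.5 Wnt5b was 5.30, 3.604 and 4.94 CPM in WT A, B and C and 3.66, 1.05 and 1.81 CPM in cKO A, B and C. The groups overlapped, since cKO A, the library rich in meningeal markers, lay just above WT B, the library rich in ventral markers. The change was -1.06 (SE 0.439, adjusted p = 0.235). Leaving out 1 library at a time it ran from -1.66 to -0.76, with an adjusted p between 0.0508 and 0.482, and passed in 0 of 6 fits. Without both WT B and cKO A it was -1.80 (SE 0.324, adjusted p = 0.0262), but these are the lowest WT and the highest cKO library for Wnt5b, so a larger value follows from the choice. The genes nearest to Wnt5b were not called at E16.5: Adipor2, 15047 bases away, was at 0.01 (SE 0.0566, adjusted p = 0.915) and Erc1, 26448 bases away, at 0.10 (SE 0.0826, adjusted p = 0.437).

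Wnt3, a beta-catenin ligand required for gastrulation, was scarce. It lies on chromosome 11 from 103774175 to 103818021 on the plus strand. It had 14, 17 and 19 counts in E16.5 WT A, B and C and 3, 11 and 5 counts in cKO A, B and C. The cKO libraries were all lower, with a change of -1.33 (SE 0.463, adjusted p = 0.0905) and of -1.38 with the block (SE 0.471, adjusted p = 0.0474). At E14.5 it had 4, 16 and 17 counts in WT and 5, 0 and 7 in cKO, which overlapped, and was left untested for low counts. Leaving out 1 library at a time, the unblocked E16.5 value ran from -1.90 to -0.97, with an adjusted p between 0.0808 and 0.225.

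At E16.5 the 3 cKO libraries lay below the 3 WT libraries for 3 ligands (Wnt3, Wnt5b and Wnt7b) of 10, against 18.3% of all genes tested, and above them for 0, against 19.2%. At E14.5 this held for 1 of the 9 tested ligands below (Wnt7b), against 14.8%, and for 1 above (Wnt4), against 11.9%. Wnt4, known for kidney and gonad formation, had 7, 3 and 14 counts in E14.5 WT A, B and C and 21, 17 and 18 in cKO. Its change was 1.30 (SE 0.471, adjusted p = 0.185). At E16.5 it had 14, 9 and 10 counts in WT and 13, 11 and 5 in cKO, which overlapped (-0.14, SE 0.403, adjusted p = 0.845).

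**Figure D3:**
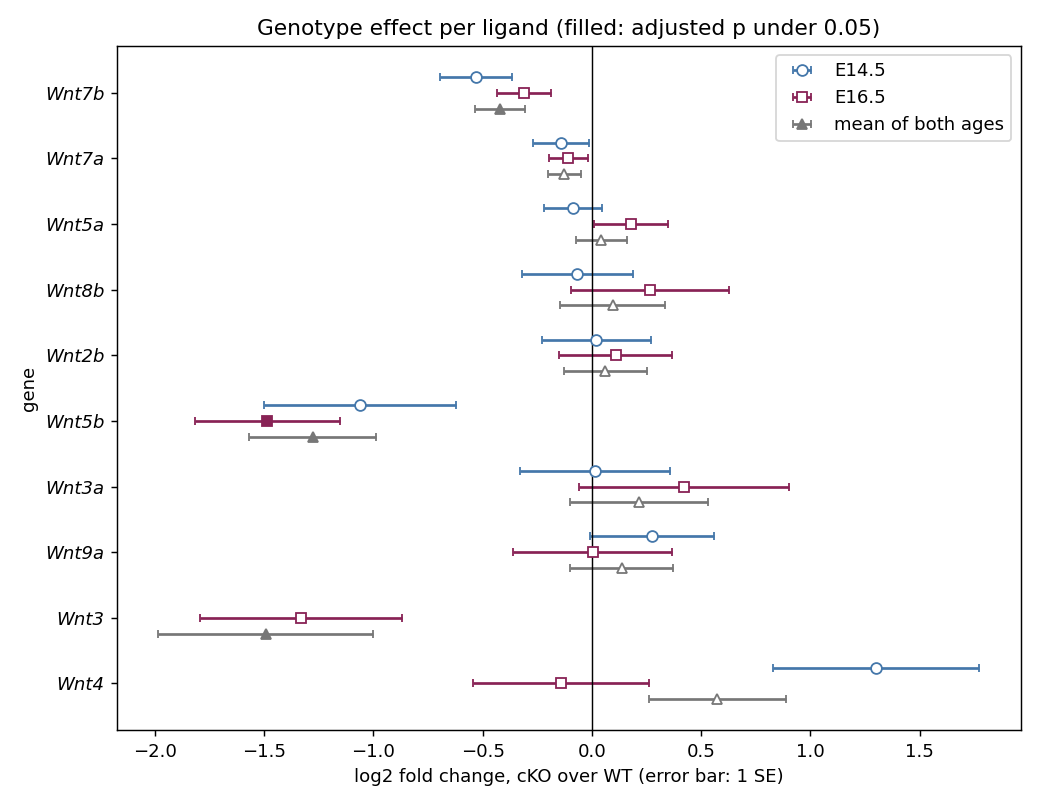
Log2 fold change of cKO over WT (x axis, bars of 1 SE) for each ligand (y axis) at E14.5, at E16.5 and as the mean of both ages. Filled symbols passed an adjusted p of 0.05: Wnt5b at E16.5 (-1.48), and Wnt5b, Wnt3 and Wnt7b in the mean of both ages (-1.28, -1.49 and -0.42).

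Whether the change in cKO differed between the ages was tested in 1 fit of 12 libraries. No gene passed (0 of all genes, or 0%, by edgeR and by DESeq2). The test missed even very large differences. All 5 sex-linked genes, with a median difference of 9.12, had an unadjusted p under 0.05, and 0 passed. The lack of calls therefore does not show that the change was equal at the 2 ages. At an unadjusted p under 0.05 there was 1 ligand, Wnt4 (-1.43, SE 0.626, adjusted p = 0.9999), against 2.07% of all genes. The difference was 0.23 for Wnt7b (SE 0.229) and -0.40 for Wnt5b (SE 0.576), and for neither was a difference between the ages shown.

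The 2 ages were also averaged in that fit, a test added after the single-age values had been seen. In it 3 of the 10 ligands passed, against 26.9% of all genes: Wnt5b (-1.28, SE 0.290, adjusted p = 0.00751), Wnt7b (-0.42, SE 0.115, adjusted p = 0.0186) and Wnt3 (-1.49, SE 0.492, adjusted p = 0.0421). Wnt5b and Wnt7b each passed in all 12 fits that left out 1 library. Wnt3 passed in 2 of them, those without WT A of E14.5 or cKO B of E16.5, and in the other 10 its adjusted p reached up to 0.101. With embryo sex as a term Wnt5b passed (-1.50, adjusted p = 0.0184), while Wnt7b (-0.46, adjusted p = 0.0606) and Wnt3 (-1.34, adjusted p = 0.180) did not.

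Neuron markers were lower in E16.5 cKO cortex beside these ligands. The summed level of 12 neuron markers was 5913, 6194 and 5918 CPM in E16.5 WT A, B and C and 4241, 4513 and 4959 CPM in cKO, and 8 of the 12 passed as lower there (11 with the block), none as higher, against 15.9% of all genes called in either direction (32.2% with the block). At E14.5 it was 4426, 5877 and 4714 CPM in WT and 2598, 4328 and 4051 CPM in cKO, with 1 of 12 lower (Nefm, a neurofilament gene, -1.74, adjusted p = 0.0406) by edgeR, against 2.01% of all genes, and 4 called by DESeq2, against 8.02%. The library with the most neuron marker RNA at E14.5, WT B, also had the most Wnt7b, and cKO A had the least of both. At E16.5 cKO A again had the least neuron marker RNA of the 6 libraries, and the most Wnt7b of the 3 cKO libraries, though less than any WT library. Wnt5b did not follow that order, with its lowest E14.5 level in cKO B. In bulk tissue fewer cells of a type and less RNA per cell cannot be told apart. The part of neuron content in the Wnt7b and Wnt5b results was not tested. Of 12 radial glia markers, 1 was higher at E14.5 (Hopx, 0.97, adjusted p = 0.0355), against 2.01% of all genes. At E16.5, 3 were higher (Hopx, Hes5 and Nes) and 1 lower (Ptprz1), against 15.9% of all genes, and with the block 5 were higher and 2 lower, against 32.2%.

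**Figure D4:**
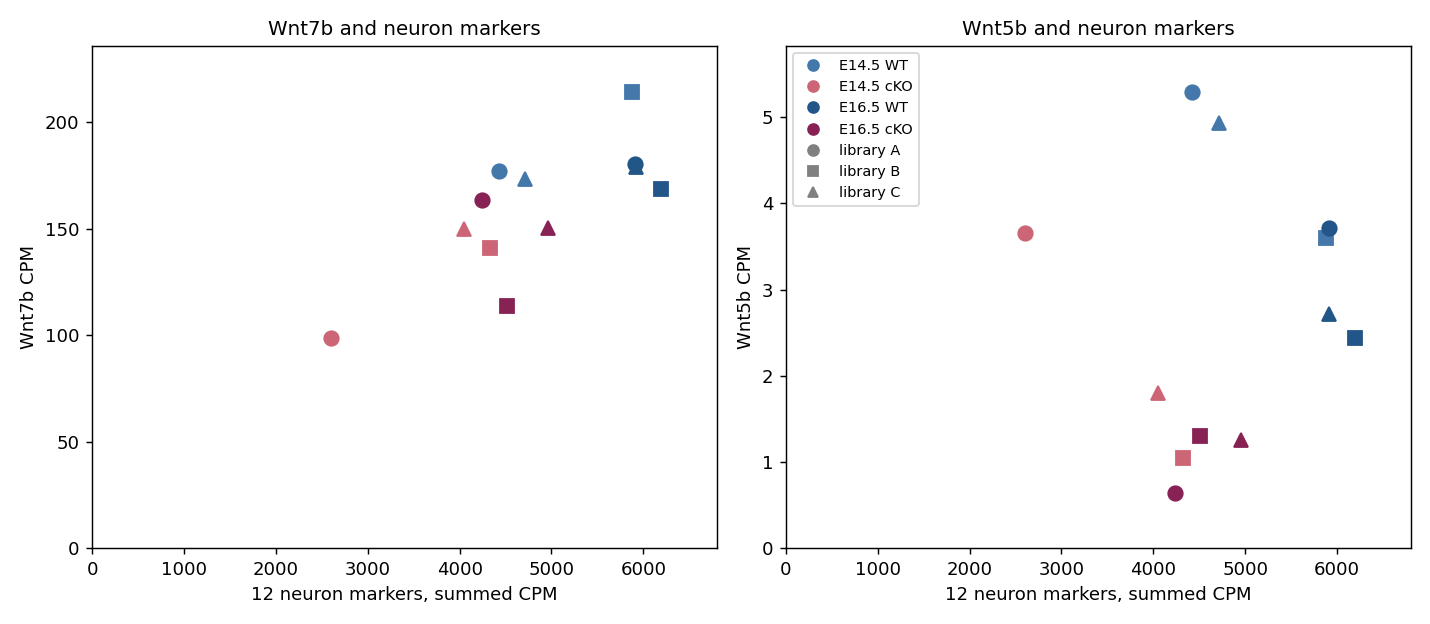
CPM of Wnt7b (left) and Wnt5b (right) on the y axes against the summed CPM of 12 neuron markers on the x axes, with 1 point per library. E14.5 cKO A is lowest in neuron markers and Wnt7b (2598 and 98.7 CPM), E16.5 cKO A is the lowest of its age in markers (4241 CPM) and the highest of the 3 E16.5 cKO libraries in Wnt7b (164 CPM, below all WT libraries), and Wnt5b in E14.5 cKO A (3.66 CPM) lies among the WT libraries.

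Wnt7a showed no called difference. Its level was 37.3, 37.9 and 37.8 CPM in E14.5 WT A, B and C and 35.5, 28.2 and 37.9 CPM in cKO, with cKO B lowest and the groups overlapping (-0.14, SE 0.126, adjusted p = 0.575). At E16.5 it was 30.8, 31.2 and 33.2 CPM in WT and 28.0, 32.2 and 28.7 CPM in cKO, again overlapping (-0.11, SE 0.0901, adjusted p = 0.456). Its paralog Wnt7b did not overlap between genotypes, as given above. The co-receptors of both ligands, Gpr124 (listed as Adgra2) and Reck, were at 0.12 (SE 0.187, adjusted p = 0.716) and 0.32 (SE 0.156, adjusted p = 0.206) at E16.5.

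None of the hem ligands was called between genotypes at either age, with or without the block at E16.5. Of all genes 2.01% were called at E14.5 and 15.9% at E16.5, or 32.2% with the block. Wnt8b, which marks the hem and medial cortex, was 19.1, 12.8 and 17.8 CPM in E14.5 WT A, B and C and 21.5, 13.2 and 12.4 CPM in cKO. At E16.5 it was 4.62, 10.6 and 9.75 CPM in WT and 6.12, 13.2 and 10.8 CPM in cKO. Library A was lowest in both genotypes at E16.5, and the genotypes overlapped at both ages. The changes were -0.07 (SE 0.254, adjusted p = 0.906) and 0.26 (SE 0.361, adjusted p = 0.660), and the second was 0.28 with the block (SE 0.131, adjusted p = 0.134).

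Wnt3a, the hem ligand required for the hippocampus to form, was 2.45, 3.03 and 4.62 CPM in E14.5 WT A, B and C and 3.01, 4.74 and 2.504 CPM in cKO. Its E16.5 levels were 1.27, 1.51 and 2.41 CPM in WT and 0.904, 3.42 and 2.71 CPM in cKO. Both ages overlapped, with changes of 0.02 (SE 0.344, adjusted p = 0.985) and 0.42 (SE 0.480, adjusted p = 0.592). Library A was again the lowest of each genotype at E16.5. Wnt9a lies head to head with Wnt3a on chromosome 11, with 16178 bases between them. It was 1.22, 1.97 and 2.57 CPM in E16.5 WT and 1.44, 2.70 and 1.65 CPM in cKO (0.00, SE 0.365, adjusted p = 0.996), and 0.28 (SE 0.284, adjusted p = 0.628) was its change at E14.5.

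Wnt2b, which is also made in the hem, was 6.45, 6.13 and 10.1 CPM in E14.5 WT A, B and C and 7.75, 9.13 and 6.12 CPM in cKO. In E16.5 libraries it was 3.61, 5.52 and 4.21 CPM in WT and 3.46, 6.02 and 4.95 CPM in cKO. The groups overlapped, with changes of 0.02 (SE 0.251, adjusted p = 0.973) and 0.11 (SE 0.259, adjusted p = 0.812), and library A was lowest in both genotypes at E16.5. Wnt5a, a polarity ligand made in the hem and elsewhere, was 34.3, 32.0 and 42.9 CPM in E14.5 WT and 33.9, 37.0 and 31.4 CPM in cKO (-0.09, SE 0.132, adjusted p = 0.752). At E16.5 it was 31.9, 45.7 and 39.7 CPM in WT and 36.1, 52.3 and 44.8 CPM in cKO, higher in the cKO library of each letter, with a change of 0.18 (SE 0.169, adjusted p = 0.517) and of 0.18 with the block (SE 0.0706, adjusted p = 0.0822).

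Markers of the hem and hippocampus other than Wnt genes were also lowest in library A at E16.5. Their summed level over 15 genes was 234, 286 and 262 CPM in E16.5 WT A, B and C and 197, 267 and 216 CPM in cKO. The E14.5 sums were 242, 228 and 250 CPM in WT and 187, 246 and 194 CPM in cKO. Of the markers 13 were tested at E14.5 and 12 at E16.5. By edgeR without the block 0 passed at either age, against 2.01% and 15.9% of all genes. By DESeq2 it was 0 as well, against 8.02% and 17.2%. At an unadjusted p under 0.05 there was 1 at each age, against 20.2% and 31.6%. With the block at E16.5, 1 was lower, against 32.2% of all genes called. It was Zbtb20 (-0.35, adjusted p = 0.00154), a transcription factor of the hippocampus. How much hem tissue each sample held, and its part in these ligand levels, was not tested.

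**Figure D5:**
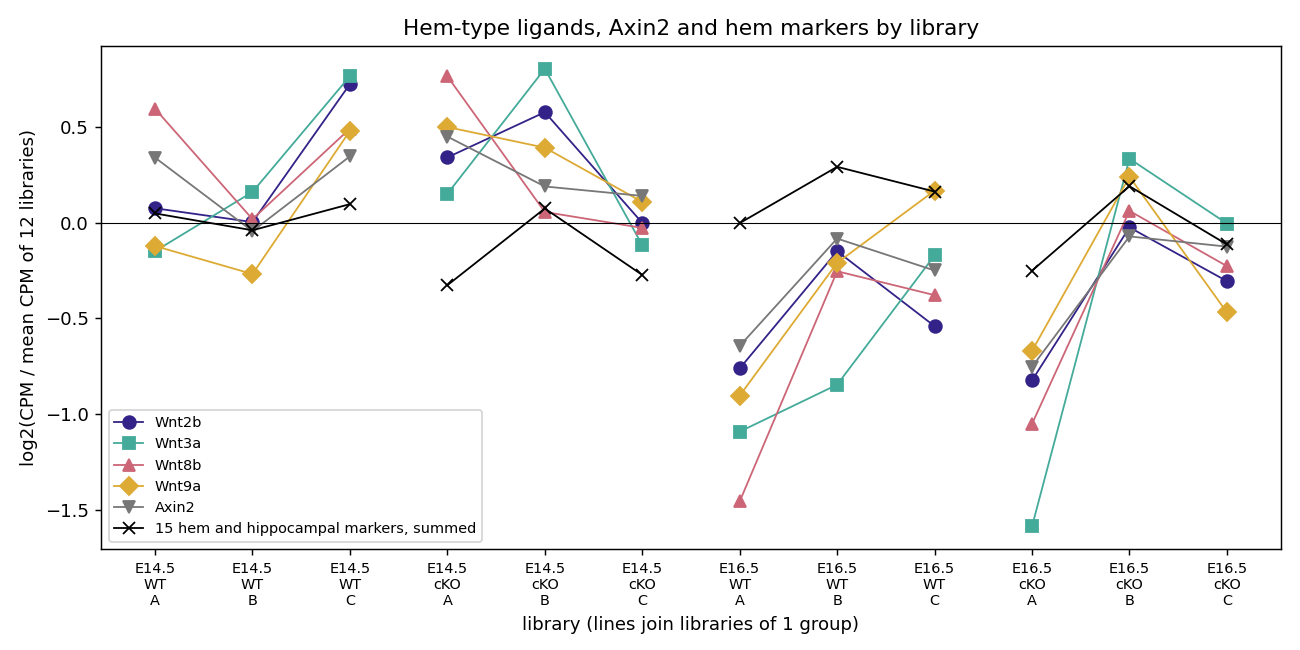
Log2 of CPM over the mean of 12 libraries (y axis) for Wnt2b, Wnt3a, Wnt8b, Wnt9a, Axin2 and 15 summed hem and hippocampal markers in each library (x axis), with lines within groups. At E16.5 library A is the lowest of both genotypes for all 6 series, while at E14.5 the series take different orders.

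Across the 12 libraries, the log CPM of Wnt2b, Wnt3a, Wnt8b and Wnt9a had pairwise Pearson correlations between 0.75 (Wnt3a with Wnt8b) and 0.86 (Wnt2b with Wnt3a). The libraries share ages, genotypes and dissections, so these values describe the set only. Wnt5a, also a hem ligand, did not share this, with correlations between 0.10 (Wnt2b) and 0.23 (Wnt9a) with those 4 ligands. Wnt7b had correlations between -0.50 and -0.28 with the same 4, and Wnt5b between 0.18 and 0.39. Among 13872 genes with a mean of at least 1 CPM, the gene most like Wnt8b was Axin2 (r = 0.96), a beta-catenin feedback target. Snord52 and Nuf2 came close behind it (r = 0.95 each). Most like Wnt7b was Fgf11 (r = 0.96), a growth-factor-homologous protein of neurons, followed by Sel1l3 (r = 0.95). Wnt5b was most like Cuedc1, Tkt and Scara3 (r = 0.97 each), Tkt being the transketolase of the pentose phosphate pathway. Wnt9a was most like 1700123O20Rik (r = 0.93), followed by Tmem132c and Rspo1 (r = 0.91 each), Rspo1 being a secreted enhancer of Wnt signalling and a hem gene. Wnt3a was most like Polr2d (r = 0.92), a subunit of RNA polymerase II. For Wnt2b it was Ndufa4 (r = 0.93), a mitochondrial respiratory protein, for Wnt7a Vegfb (r = 0.93), and for Wnt5a Gm12522 (r = 0.89). Wnt3 and Wnt4 were below that level and were not ranked.

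From E14.5 to E16.5 in WT cortex 0 of the 10 ligands passed by edgeR, against 2.15% of all genes, with 3 at an unadjusted p under 0.05 (Wnt2b, Wnt7a and Wnt8b), against 27.7%. DESeq2 called 1, Wnt8b, against 13.3%. Changes here are E16.5 over E14.5. Wnt8b was at -0.998 (SE 0.344, edgeR adjusted p = 0.0996, DESeq2 adjusted p = 0.0443). Wnt2b (-0.77, SE 0.269, adjusted p = 0.102), Wnt3a (-0.96, SE 0.453, adjusted p = 0.191) and Wnt7a (-0.25, SE 0.107, adjusted p = 0.161) also had negative values. For each of Wnt8b, Wnt2b, Wnt3a and Wnt7a all 3 E16.5 WT libraries lay below all 3 E14.5 WT libraries. The gap was narrow for Wnt3a (at most 2.41 CPM at E16.5 and at least 2.45 CPM at E14.5). The share of all genes that separated in this way was not counted. Wnt7b was at -0.10 (SE 0.162, adjusted p = 0.722) and Wnt5a at 0.10 (SE 0.164, adjusted p = 0.715). Age and the WT embryos' sexes were unbalanced, with 3 males at E14.5 and 2 at E16.5.

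Genes that handle or receive the ligands were counted by role. Of 11 genes for lipidation, secretion and recycling, 10 were tested. By edgeR without the block 0 passed at either age, against 2.01% and 15.9% of all genes. DESeq2 called 0 at either age, against 8.02% and 17.2%. At an unadjusted p under 0.05 there were 2 at E14.5 and 0 at E16.5, against 20.2% and 31.6%. Porcn, which attaches the lipid, was at -0.10 (SE 0.178, adjusted p = 0.797) at E14.5 and -0.03 (SE 0.149, adjusted p = 0.931) at E16.5. Wls, which carries Wnt proteins to the surface, was at -0.40 (SE 0.120, adjusted p = 0.133) and -0.32 (SE 0.236, adjusted p = 0.395), and at -0.32 with the block (SE 0.0903, adjusted p = 0.0212). With the block 1 gene of this list was lower, Wls, and 1 higher, against 32.2% of all genes. The higher gene was Tmed5 (0.45, adjusted p = 0.0205), a cargo receptor of the secretory route.

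Of 18 receptors and co-receptors, 1 was lower at E14.5 and 2 at E16.5, and none was higher without the block, against 2.01% and 15.9% of all genes called. With the block at E16.5 Fzd8 was higher (0.32, adjusted p = 0.0161) beside the same 2 lower genes, against 32.2% of all genes. DESeq2 called 1 of the 18 at E14.5 and 2 at E16.5, against 8.02% and 17.2%. Fzd7, a Frizzled receptor of progenitors, was 27.5, 23.4 and 26.1 CPM in E14.5 WT A, B and C and 13.3, 12.9 and 13.3 CPM in cKO. At E16.5 it was 29.4, 36.7 and 28.4 CPM in WT and 8.88, 16.2 and 13.4 CPM in cKO. Its cKO libraries lay far below its WT libraries at both ages, with changes of -0.95 (SE 0.109, adjusted p = 0.0156) and -1.30 (SE 0.212, adjusted p = 0.00711). The E14.5 call was lost with sex as a term (-0.93, adjusted p = 0.144), a term that the E14.5 libraries cannot inform. It was also lost in 4 of 6 fits that left out 1 library (WT A, WT C, cKO B or cKO C). The values ran between -1.01 and -0.90 over all 6. Fzd6 changed by -0.57 at E16.5 (SE 0.150, adjusted p = 0.0401), and this call was lost in 5 of 6 such fits, all but that without cKO A (values from -0.64 to -0.49) and with library totals as the scaling (-0.53, adjusted p = 0.0534).

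Of 14 secreted antagonists, 10 were tested at E14.5 and 8 at E16.5, and 1 passed, Draxin, lower at E16.5, against 15.9% of all genes. DESeq2 called 3 there, against 17.2%. At E14.5 it was 0 by edgeR (against 2.01% of all genes), 4 at an unadjusted p under 0.05 (20.2%) and 2 by DESeq2 (8.02%). With the block at E16.5 Sfrp1 (-0.20, adjusted p = 0.0104) and Dkk3 (-0.38, adjusted p = 0.0226), both secreted inhibitors, were lower as well, against 32.2% of all genes. Draxin, which repels commissural axons and binds Lrp6, was 371, 383 and 380 CPM in WT A, B and C and 242, 311 and 278 CPM in cKO there. The groups did not overlap (-0.46, SE 0.0921, adjusted p = 0.0158), and leaving out WT B (adjusted p = 0.0687) or WT C (adjusted p = 0.0565) ended the call. Of 14 beta-catenin feedback targets, 13 were tested at E16.5, and 2 were lower and 1 higher, against 15.9% of all genes. DESeq2 called 3 there too, against 17.2%. At E14.5 none of 12 passed by edgeR, by DESeq2 or at an unadjusted p under 0.05, against 2.01%, 8.02% and 20.2%. Nkd2, which restrains Dishevelled, was 8.71, 7.84 and 7.03 CPM in E16.5 WT and 2.98, 2.49 and 3.10 CPM in cKO (-1.47, SE 0.174, adjusted p = 0.00264). Tcf7, a TCF/LEF factor, changed by -0.80 (SE 0.210, adjusted p = 0.0390), a call lost in each of the 6 fits that left out 1 library (values from -0.97 to -0.72). Apcdd1, an inhibitor at the receptor, was the higher 1 (0.36, SE 0.101, adjusted p = 0.0473). Axin2, the common readout of the pathway, was at 0.05 (SE 0.143, adjusted p = 0.863) and 0.01 (SE 0.202, adjusted p = 0.972).

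Of 22 signal transduction genes, 4 were lower (Pygo1, Tle4, Apc2 and Csnk1a1) and 2 higher (Tle1 and Fermt2) at E16.5, against 15.9% of all genes. With the block 8 were lower and 3 higher, against 32.2%, and DESeq2 called 7, against 17.2%. Pygo1, a coactivator of beta-catenin, changed by -0.70 (SE 0.112, adjusted p = 0.00665) and Tle4, a co-repressor of TCF factors that also marks deep-layer neurons, by -0.57 (SE 0.0923, adjusted p = 0.00701). Of 12 planar cell polarity genes 2 were lower at E16.5, a share near the 15.9% of all genes. With the block 5 were lower and 1 higher, against 32.2%, and DESeq2 called 4, against 17.2%. Celsr2 changed by -0.36 (SE 0.0690, adjusted p = 0.0124), lost without cKO B (adjusted p = 0.0631), and Prickle2 by -0.87 (SE 0.188, adjusted p = 0.0202), lost without WT A, WT B, cKO B or cKO C (values from -1.02 to -0.68 over all 6 fits). At E14.5 no gene of these 2 lists passed by edgeR, against 2.01% of all genes. In each list 5 had an unadjusted p under 0.05, against 20.2%. DESeq2 called 1 signal transduction gene and 2 polarity genes, against 8.02%. In the fit of all 12 libraries the E16.5 calls of Fzd6 (adjusted p = 0.264), Draxin (adjusted p = 0.102), Tcf7 (adjusted p = 0.127) and Celsr2 (adjusted p = 0.0502) were not made. The median change at E16.5 was 0.10 for lipidation, secretion and recycling, 0.01 for receptors, -0.15 for antagonists, -0.07 for feedback targets, -0.05 for signal transduction and -0.10 for polarity genes, beside 0.02 over all genes tested. Several of these genes are expressed in neurons, and the part of the lower neuron markers in their values was not tested.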

How the data were processed

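RNA was extracted with TRIzol from dorsal cortex and sequenced, per the labels' protocols. The submitters' processing notes name STAR 2.5.2b and mm10. Each deposited count file gives unnormalised fragment counts over RefSeq exons from featureCounts 1.5.2, run with strand setting 2 and a minimum overlap of 25 bases, per the file headers. For each age the authors' deposited table gives the log2 ratio of WT to knockout, its error and a p-value (DESeq2 1.14.1 in the submitters' notes); the direction follows from the positive sign of Ash2l. Their 12 normalised library columns were not used.

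Counts were tested with edgeR 4.0.16 (limma 3.58.1, R 4.3.3): TMM scaling, filterByExpr, robust quasi-likelihood F tests, and p-values adjusted by Benjamini-Hochberg across all tested genes, called under 0.05. The 6 libraries of an age were fitted together, and the age comparisons and the averaged effect in 1 fit of 12 libraries with 4 groups. SE is the log2 fold change divided by the root of F. CPM uses TMM library sizes, RPKM divides by the counted exon length, and log CPM used a prior count of 2. DESeq2 1.42.0, other scalings, no filter, a block for the shared number, a sex term and leaving out libraries were the alternatives. The sex term was fitted over 12 libraries and comes only from those of E16.5, with 1 female per genotype. The code was tested on simulated counts. Replicate libraries differed by more than sampling noise (chi-square per degree of freedom from 9.06 to 48.3), so each was counted as 1 sample.

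Libraries with the same number were taken as pairs where all 3 correlations of their deviations from the group means were over 0.1. They were 0.28, 0.21 and 0.11 at E16.5, and 0.27, 0.30 and -0.00 at E14.5, so the block stands beside results at E16.5 only. Among libraries of different numbers, WT C and cKO B of E16.5 were also over that cut (0.107). The members and the gene lists were chosen with earlier results of these data known. Named genes are the members, Ash2l, the sex-linked genes and the neighbours of a called member. Up to 2 called genes per pathway list with the smallest p at each age were also named. Further names were taken from the 3 genes most like each member by Pearson correlation, not always all 3. Adgra2, Reck, Porcn, Wls, Axin2 and the marker genes were named outside that rule, and so were Apcdd1, Tmed5, Fzd8, Sfrp1, Dkk3, Apc2, Csnk1a1, Tle1 and Fermt2 after their values were seen. Promoter windows come from RefSeq.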

Additional observations from a re-analysis of the deposited data

How the results depend on the processing

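At E14.5, 297 genes (2.01% of those tested) passed. There were 1194 (8.02%) by DESeq2, 1279 (8.65%) with the replicate block, 1336 (8.71%) in the fit of 12 libraries, 128 (0.835%) there with embryo sex, 621 (4.15%) without WT B and cKO A, and from 0.0334% to 2.35% leaving out 1 library. In that blocked fit Wnt7b was at -0.54 (adjusted p = 0.0465) and Wnt5b at -1.19 (adjusted p = 0.0601). At E14.5 the rule for pairs was met by A (0.27) and B (0.30) but not by C (-0.00). At E16.5, 2358 genes (15.9%) passed, 4790 (32.2%) with the block, 1882 (12.3%) in the fit of 12 libraries, 1569 (10.2%) there with embryo sex, and from 6.50% to 18.97% leaving out 1 library. No gene passed for the age difference, nor in the 12 fits without 1 library (0% in each), and 1 gene (0.00652%) did with the block, Dlx6os1 (1.58, adjusted p = 0.0116), a name given after its value was seen. For age in WT 330 (2.15%) passed, 1961 (13.3%) by DESeq2, 10 (0.0652%) with sex, and from 0.00640% to 14.2% leaving out 1 library. The averaged effect had 4127 (26.9%), 2338 (15.2%) with sex, and from 20.4% to 28.5% leaving out 1 library. The causes were not tested.

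The signs of small values moved. With sex at E14.5 Wnt5a was at 0.10 and Wnt8b at 0.35, and without WT B and cKO A Wnt2b was at -0.14 and Wnt3a at -0.0020. Wnt9a at E16.5 was at -0.0014 with RLE scaling and -0.0046 by DESeq2. For the age difference with sex Wnt2b was at -0.062, Wnt5b at 0.078, Wnt7a at -0.018 and Wnt8b at -0.015. Leaving out 1 library gave ranges across 0 for Wnt2b (-0.12 to 0.29), Wnt3a (-0.28 to 0.32), Wnt5a (-0.17 to 0.046) and Wnt8b (-0.38 to 0.085) at E14.5. The same held for Wnt2b (-0.091 to 0.30), Wnt4 (-0.37 to 0.081), Wnt8b (-0.029 to 0.53) and Wnt9a (-0.33 to 0.28) at E16.5. For the age difference it held for Wnt2b (-0.19 to 0.28), Wnt3 (-0.25 to 0.77), Wnt5b (-0.74 to 0.16), Wnt7a (-0.096 to 0.11) and Wnt9a (-0.61 to 0.016). For age in WT it held for Wnt5a (-0.026 to 0.24) and Wnt7b (-0.15 to 0.015), and for the averaged effect for Wnt2b (-0.038 to 0.19), Wnt5a (-0.026 to 0.11), Wnt8b (-0.060 to 0.23) and Wnt9a (-0.028 to 0.27). None of these values passed the test. Wnt3 and Wnt4, with under 25 counts in every library, and Wnt5b in cKO cortex are limited by depth.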

Other observations

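Outside the tested ligands, Wnt8a had 6 counts in E16.5 cKO A, 3 in E16.5 cKO C and none in the other 10 libraries. Wnt10b had 1 count in 1 library. Neither had enough counts for a test. Beside Wnt8b, Scd1, a desaturase of fatty acid synthesis that lies 85762 bases away, was lower at both ages, at -1.81 at E14.5 (adjusted p = 0.0436) and -1.45 at E16.5 (SE 0.142, adjusted p = 0.00186, n = 3 libraries a group in edgeR), while Wnt8b itself was not called. This neighbour was named after its value was seen.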
